A study of Mus musculus with 6 samples.

Results

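Osteoclasts dissolve bone mineral by pumping acid onto it. The genes of this proton pump and of the acid secretion machinery around it were compared between wild-type mouse osteoclasts and osteoclasts from mice labelled as Tet mutants. The genes were chosen by name: every symbol that begins with Atp6v0, Atp6v1 or Atp6ap, plus Tcirg1, Car2, Clcn7, Ostm1, Snx10, Plekhm1, Slc4a2 and Slc9b2. They made up 33 of the 23204 genes in the count table, and 27 of the 33 had enough reads to be tested.

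Bone marrow cells of C57BL/6 mice were grown in M-CSF, a growth factor for the monocyte lineage. The cells that adhered after 2 days then received both M-CSF and RANKL, a cytokine required to make osteoclasts. Polyadenylated RNA of 3 wild-type libraries (called 1, 4 and 6, after the numbers that open their column names) and of 3 libraries labelled Tet2Rank–/–; Tet3aRank+/– (2, 3 and 5) was sequenced. TET enzymes oxidise the methyl group of cytosine in DNA. Neither the meaning of Rank and of the a in these names, nor the cells in which the deletion acts, nor whether each library came from its own animal or culture is given in the labels. The p-values therefore speak of differences among these 6 libraries, which may be technical. Female and male mice are named in each group, but no column is tied to a sex. Total counts lay between 8794973 and 14267135 per library. The columns of libraries 5 (mutant) and 6 (wild type) carry a second number in their names, and edgeR's test was run with and without that difference as a term. Levels are in CPM, a gene's reads relative to all reads of its library, after TMM scaling, and fold changes are log2 of mutant over wild type.

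The targeted genes were read first. Tet2 stood at 71.7, 80.9 and 79.3 CPM in wild-type libraries 1, 4 and 6 and at 58.2, 45.5 and 52.3 CPM in libraries 2, 3 and 5, so the groups did not overlap but mutant transcripts were not absent. Its log2 fold change was -0.57 (adjusted p = 0.0924 in edgeR's quasi-likelihood test, and 0.0400 with the two-number names as a term). Tet3 stood at 145, 121 and 127 CPM in wild type and at 163, 141 and 156 CPM in the libraries labelled mutant, a log2 fold change of 0.23 (edgeR, adjusted p = 0.360) in the direction opposite to the label. A deletion of an exon need not lower the reads over a whole gene, and the labels do not name the exons, so libraries are called "labelled mutant" below.

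The vacuolar H+-ATPase is a rotary pump. A cytosolic V1 sector of subunits A to H hydrolyses ATP, and a membrane V0 sector of subunits a, c, d and e carries protons across. Several subunits have alternative isoforms. In the osteoclast, subunit a3 (Tcirg1) and subunit d2 (Atp6v0d2) are the enriched forms, and the pump is delivered with secretory lysosomes to the ruffled border that faces bone. Carbonic anhydrase 2 (Car2) supplies the protons, ClC-7 (Clcn7) with its partner Ostm1 moves chloride, and the anion exchanger AE2 (Slc4a2) removes bicarbonate on the opposite side of the cell. Loss of Tcirg1, Clcn7, Ostm1, Snx10 or Plekhm1 is a known cause of osteopetrosis.

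Most of the machinery was lower in the libraries labelled mutant. Of the 27 genes tested, 24 had a log2 fold change below 0, where 53.2% of all 14040 genes tested did. The median was -0.73, against -0.03 over all genes tested, and the range ran from -1.75 for Slc9b2 to 0.91 for Atp6v0a1. In 20 genes every library labelled mutant was lower than every wild-type library (16.9% of all genes tested), in 1 gene, Atp6v0a1, every one was higher (9.91% of all genes tested), and in 6 the groups overlapped. The genes' summed level was 13957, 11782 and 20195 CPM in libraries 1, 4 and 6, against 6413.5, 8609.1 and 9978.3 CPM in libraries 2, 3 and 5. The lowest wild-type sum thus lay above the highest sum labelled mutant.

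None of these genes passed edgeR's test with genotype as the only term. At an adjusted p under 0.05 it called 0 lower and 0 higher, where 0.0214% of all genes tested were called lower and 0.0499% higher. At an unadjusted p under 0.05, 19 were lower (12.4% of all genes tested) and 1 was higher (7.19%). With the two-number names as a term, 17 genes were called lower (5.60% of all genes tested) and 1, Atp6v0a1, was called higher (3.08%). DESeq2 with genotype only called 15 lower (6.44% of the 11857 genes to which it gave an adjusted p) and the same 1 higher (5.58%). The 15 genes were all among the 17, which added Atp6v1c1 and Car2. The count of 17 changed with the library left out. With the term kept, leaving out libraries 1, 4, 6, 2, 3 and 5 in turn left 4, 2, 0, 6, 20 and 0 calls lower. The shares of all genes called in these fits are not given, so a change in calls over all genes cannot be told apart from one in these genes. Without library 5 or 6, the lone two-number library adds nothing to the genotype estimate. Below, a gene is said to have fallen or risen only where it passed edgeR's test with the two-number term. The adjusted p without the term stands beside it. The planned main test was the fit with genotype only, in which 0 passed, and the term was an alternative setting. Fold changes and standard errors come from the fit with genotype only.

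**Figure D1:**
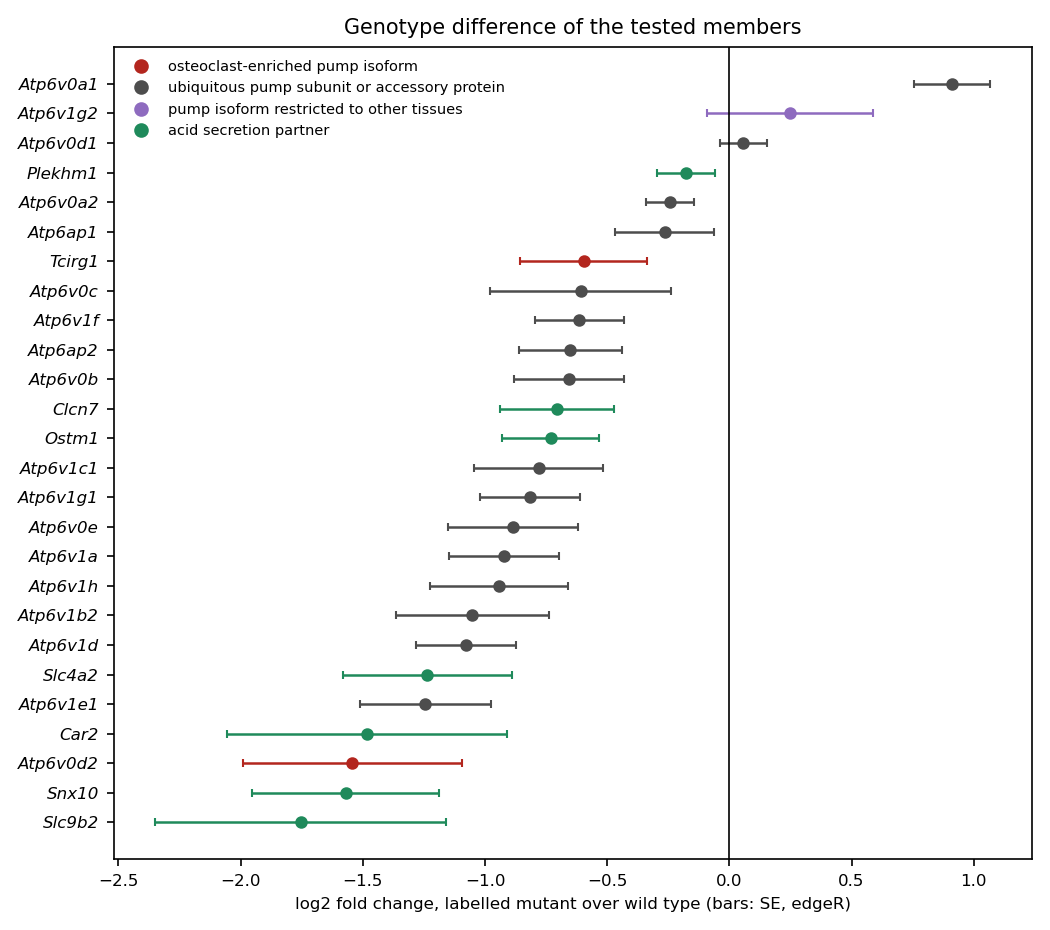
Log2 fold change (libraries labelled mutant over wild type, genotype as the only term) of the tested genes, in order of their value and coloured by role, with bars of 1 standard error, n = 3 libraries a group. Atp6v0e2, whose standard error was 1.65, is left out. Atp6v0a1 at 0.91, Atp6v1g2 and Atp6v0d1 lie to the right of 0, and all other points lie to the left, down to Slc9b2 at -1.75.

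Among the libraries the order was much the same from gene to gene. Library 6 was the highest of the 6 in 23 of the 27 tested genes and library 2 the lowest in 21. Relative to each gene's mean, the median log2 level was 0.30, 0.08 and 0.76 in wild-type libraries 1, 4 and 6 and -0.66, -0.34 and -0.11 in libraries 2, 3 and 5. Taken within libraries 1 to 4, the median difference between genotypes was -0.63, and between libraries 6 and 5 it was -0.89.

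**Figure D2:**
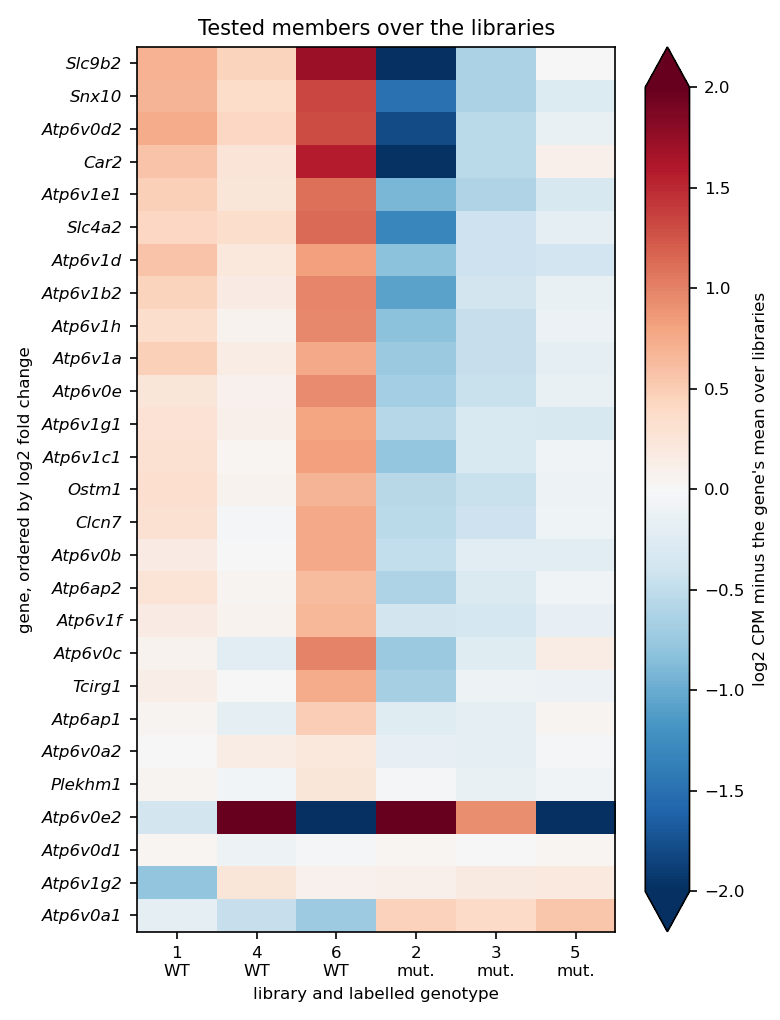
Level of each tested gene in each library as log2 CPM relative to the gene's mean over the 6 libraries, in colours that end at 2 above and below it. Wild-type library 6 holds the highest values (median 0.76) and library 2, labelled mutant, the lowest (median -0.66).

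Markers of cell identity moved with these genes. All 10 osteoclast markers (Acp5, Ctsk, Mmp9, Calcr, Oscar, Ocstamp, Dcstamp, Itgb3, Nfatc1 and Tnfrsf11a) had log2 fold changes below 0, with a median of -1.49. Of the 10, 7 were called lower in edgeR with the two-number term (5.60% of all genes tested). By genotype only, edgeR called 0 and DESeq2 called 2 lower (6.44% of the genes to which it gave an adjusted p). The groups overlapped in 4 of the 10. The summed level of the osteoclast markers ranged from 14228 to 38013 CPM in wild type and from 2780 to 11786 CPM in the libraries labelled mutant. Library 6 was the highest and library 2 the lowest for all 10. Of 12 macrophage markers 11 were above 0 (median 0.89) and 6 were called higher with the two-number term (3.08% of all genes tested). By genotype only, edgeR called 0 of them and DESeq2 called 8 higher (5.58%), and the groups overlapped in 5. The macrophage markers had summed levels of 6062.9 to 7686.6 CPM in wild type and 9523.2 to 10408 CPM in the libraries labelled mutant. Summed neutrophil markers ranged from 166 to 641 CPM in wild type and from 297 to 1010 CPM in the libraries labelled mutant. All 7 tested neutrophil markers overlapped between groups. With the term 3 of them, S100a8, S100a9 and Ltf, were called higher (3.08% of all genes tested), with edgeR adjusted p of 0.0337, 0.0165 and 0.0191. Without the term their edgeR adjusted p was 0.732, 0.588 and 0.609. By genotype only, edgeR and DESeq2 called 0 neutrophil markers, and 0 were below an unadjusted p of 0.05. The sums in wild type and in the libraries labelled mutant were, for stromal markers, from 797 to 2337 and from 653 to 3269, for lymphocyte markers from 37.4 to 159 and from 131 to 173, for dendritic cell markers from 15.1 to 33.7 and from 11.8 to 23.7, and for erythroid and mast cell markers from 0.08 to 26.4 and from 0.22 to 30.3. Of these 4 lists edgeR called 0 markers with the term. By genotype only, 0 were below an unadjusted p of 0.05 and DESeq2 called 0. The lymphocyte sum was almost all Cd4, which some macrophages also carry, at 33.8 to 170 CPM, and Cd3e and Cd3g had 0 or 1 count in each library. The part of these cell types in the lower pump genes, in the higher Atp6v0a1 and in the isoform ratios below was not tested. In bulk RNA, fewer osteoclasts and less pump RNA per osteoclast cannot be told apart.

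Pump genes are known targets of the MiT/TFE transcription factors, which bind E-box sequences such as CACGTG. The start regions of 24 of the 33 genes were found among RefSeq promoters of build GRCm38.p6, each a window from 250 bases before to 50 bases after the start, 33 windows in all because some genes have several starts. CACGTG, which reads the same on both strands, occurred in 5 of the 33 windows (15.2%), against 2349 of 32851 windows over all genes (7.15%). The 5 genes were Atp6v1a, Atp6v0b, Atp6v0e, Atp6v0d1 and Clcn7. TCATGTG, searched on both strands and sharing no full match with CACGTG, occurred in 2 member windows (6.06%, for Atp6v0c and a second start of Clcn7) against 3.77% over all. A match describes letters in a window and is not a bound site. The 4 windows with CACGTG from V0 and V1 subunit genes are shown, the gene with the highest mean CPM first. CACGTG is in capitals, and each sequence reads 5′ to 3′ on the gene's strand.
Atp6v1a, chr16:44139210-44139509 (minus strand): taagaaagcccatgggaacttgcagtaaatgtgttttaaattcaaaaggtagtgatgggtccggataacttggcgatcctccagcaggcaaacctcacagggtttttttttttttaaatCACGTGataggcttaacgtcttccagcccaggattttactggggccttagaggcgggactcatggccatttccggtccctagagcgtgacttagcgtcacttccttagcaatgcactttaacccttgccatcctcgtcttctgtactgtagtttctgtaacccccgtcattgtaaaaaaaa
Atp6v0b, chr4:117887280-117887579 (minus strand): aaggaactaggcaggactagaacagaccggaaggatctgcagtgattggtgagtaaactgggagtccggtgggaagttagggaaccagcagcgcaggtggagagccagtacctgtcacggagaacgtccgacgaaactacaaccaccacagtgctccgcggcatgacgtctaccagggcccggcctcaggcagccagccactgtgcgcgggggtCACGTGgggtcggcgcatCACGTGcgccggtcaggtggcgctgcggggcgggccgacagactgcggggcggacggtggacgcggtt
Atp6v0e, chr17:26676146-26676445 (plus strand): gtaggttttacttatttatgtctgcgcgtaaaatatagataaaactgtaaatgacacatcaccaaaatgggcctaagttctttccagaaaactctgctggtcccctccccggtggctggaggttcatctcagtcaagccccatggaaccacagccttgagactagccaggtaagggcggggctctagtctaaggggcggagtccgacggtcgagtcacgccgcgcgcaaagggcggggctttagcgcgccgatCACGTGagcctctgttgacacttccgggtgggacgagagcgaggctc
Atp6v0d1, chr8:105566015-105566314 (minus strand): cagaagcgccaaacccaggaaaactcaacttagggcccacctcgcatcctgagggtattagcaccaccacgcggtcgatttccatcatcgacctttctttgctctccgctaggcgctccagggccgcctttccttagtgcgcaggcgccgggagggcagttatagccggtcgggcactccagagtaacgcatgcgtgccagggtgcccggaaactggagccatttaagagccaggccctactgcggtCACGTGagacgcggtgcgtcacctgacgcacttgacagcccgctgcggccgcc
Atp6v1a and Atp6v0e had log2 fold changes of -0.92 and -0.88, and Atp6v0b with its pair of matches had -0.66. Clcn7, whose window is not shown, had -0.71, and Atp6v0d1 had 0.06 (SE 0.0968) with overlapping groups. The motif was thus present in genes that were lower and in Atp6v0d1, which was near 0. A link between the motif and the fold changes was not tested.

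In the membrane sector, the osteoclast-enriched isoforms of subunits a and d were both lower. Atp6v0d2 (ENSMUSG00000028238, chr4:19876841-19922605) encodes subunit d2, which is also known for a role in cell fusion. It stood at 1278, 1016 and 1890 CPM in wild-type libraries 1, 4 and 6 and at 222, 524 and 691 CPM in libraries 2, 3 and 5, so the groups were well apart, with the lowest value in library 2. The means were 1395 ± 449 and 479 ± 238 CPM (SD, n = 3), a log2 fold change of -1.54 (SE 0.447). Atp6v0d2 fell in the fit with the two-number term (edgeR, adjusted p = 0.0326, and 0.141 without the term). Leaving out 1 library at a time gave log2 fold changes from -1.91 to -1.16.

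Tcirg1 (ENSMUSG00000001750, chr19:3896050-3907133) encodes a3, the subunit that ties the pump to the ruffled border. It stood at 1352, 1236 and 2059 CPM in wild type and at 782, 1151 and 1140 CPM in the libraries labelled mutant. The groups did not overlap, but libraries 3 and 5 lay close below wild-type library 4. The means were 1549 ± 446 and 1025 ± 209.8 CPM (SD, n = 3), a log2 fold change of -0.60 (SE 0.260) that did not pass edgeR's test (adjusted p = 0.277, and 0.123 with the two-number term). Without library 6 the value was nearer 0, at -0.32.

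Atp6v0a1 went the other way. It encodes a1, a widely expressed isoform of the same subunit that is also abundant in neurons (ENSMUSG00000019302, chr11:101009452-101063719). Its level was 123, 103 and 85.1 CPM in wild-type libraries 1, 4 and 6 and 194, 185 and 207 CPM in libraries 2, 3 and 5. All 3 libraries labelled mutant lay above all wild-type libraries, and library 6, highest for most pump genes, was the lowest here. The means were 103.9 ± 19.1 and 195 ± 11.2 CPM (SD, n = 3), a log2 fold change of 0.91 (SE 0.155). Atp6v0a1 rose in the fit with the two-number term (edgeR, adjusted p = 0.0213, and 0.0764 without it), and leaving out 1 library at a time gave 0.80 to 1.05. The other widely expressed a isoform, Atp6v0a2 (a2, known from the Golgi), stood at 70.6, 78.1 and 80.9 CPM in wild type and 62.7, 62.2 and 69.2 CPM in the libraries labelled mutant. These groups lay apart by little, and its log2 fold change of -0.24 (SE 0.0988) did not pass (edgeR, adjusted p = 0.246). Atp6v0d1, the widely expressed d1, stood at 204, 185 and 195 CPM in wild type and 204, 199 and 205 CPM in the libraries labelled mutant, with overlapping groups and a log2 fold change of 0.06 (SE 0.0968).

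**Figure D3:**
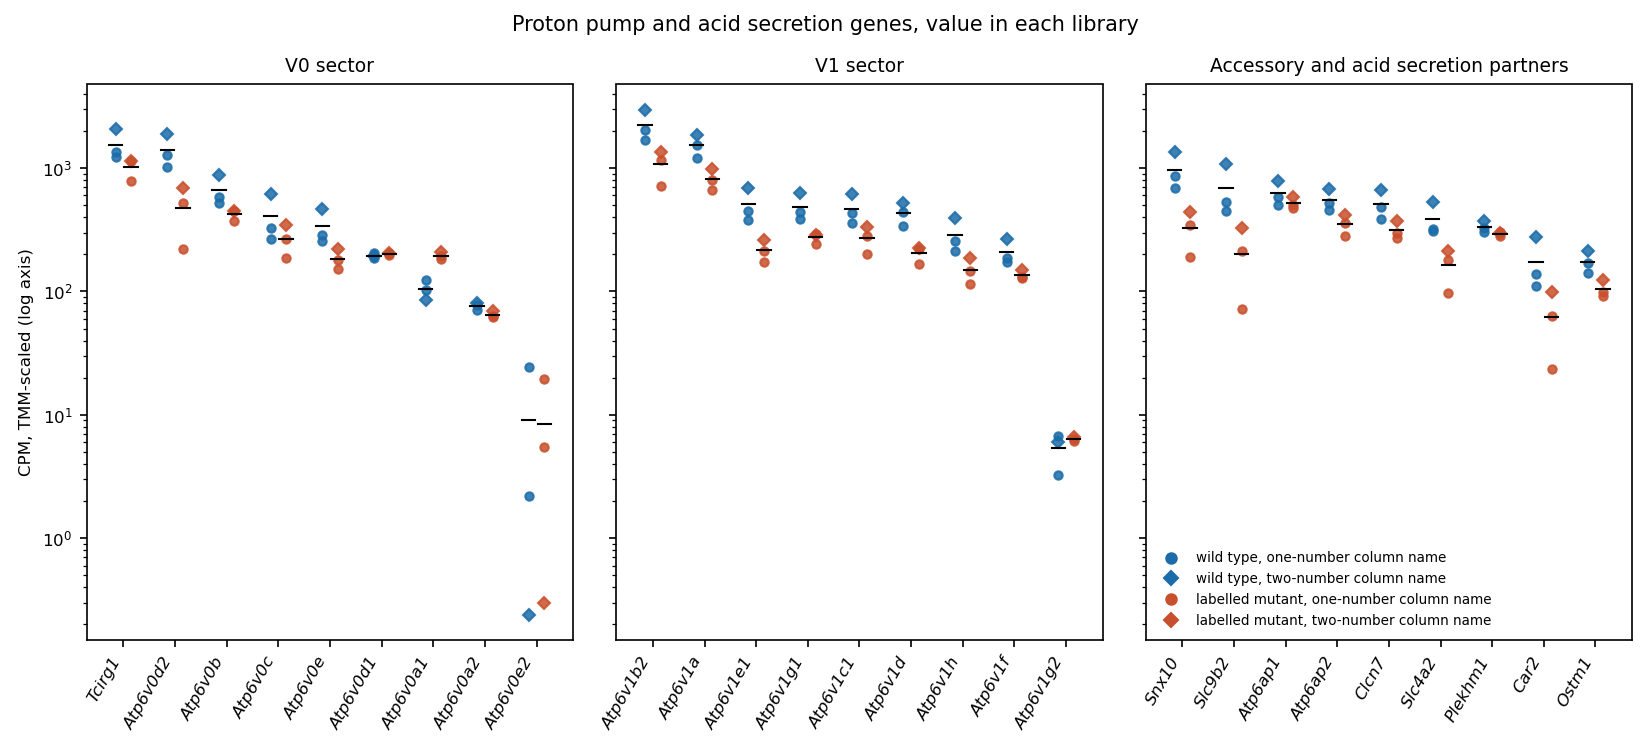
CPM on a log axis of the 27 tested genes in each library, by sector, with bars at the group means and diamonds for libraries 5 and 6. Atp6v0d2 is lower and Atp6v0a1 higher in all 3 libraries labelled mutant, and Atp6v0d1 lies near 200 CPM in both groups.

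The isoform balance was then compared within each library, which does not depend on scaling. The log2 ratio of Tcirg1 to Atp6v0a1 counts was 3.45, 3.58 and 4.60 in wild-type libraries 1, 4 and 6, against 2.01, 2.64 and 2.46 in libraries 2, 3 and 5. The groups did not overlap, and the difference of -1.51 is a ratio 2.84-fold lower in the libraries labelled mutant. The log2 ratio of Atp6v0d2 to Atp6v0d1 was 2.65, 2.45 and 3.28 in wild type and 0.12, 1.40 and 1.75 in the libraries labelled mutant, apart again, with a difference of -1.70 (3.26-fold lower). The log2 ratio of Tcirg1 to Atp6v0a2 overlapped between groups and differed by -0.34. For the first 2 ratios the two-sided exact permutation p was 0.1, the smallest that 3 against 3 libraries can give (0.15 adjusted over the 3 ratios), and for the last it was 0.4. The differences were -1.19 within libraries 1 to 4 and -2.13 between libraries 5 and 6 for Tcirg1 to Atp6v0a1. For Atp6v0d2 to Atp6v0d1 they were -1.79 and -1.53. For these ratios and the shares that follow, a change within osteoclasts and a change in the mix of cells cannot be told apart in bulk RNA.

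Per kilobase of exon, Tcirg1 remained the main a isoform in all libraries. It made up 92.1% ± 2.24 of subunit a transcripts in wild type and 84.6% ± 2.92 in the libraries labelled mutant (SD, n = 3), while Atp6v0a1 made up 4.63% ± 1.65 and 11.6% ± 2.28 and Atp6v0a2 3.24% ± 0.690 and 3.74% ± 0.644. Atp6v0d2 made up 80.5%, 78.3% and 86.5% of subunit d transcripts in wild-type libraries 1, 4 and 6, against 41.8%, 63.5% and 69.0% in libraries 2, 3 and 5. Library 2 was thus the only one of the 6 in which d1 was the larger part. Atp6v0d2 had the highest level per kilobase of all 33 genes in wild type, at 513 CPM per kilobase, and 176 in the libraries labelled mutant, while Atp6v0d1 had 109 and 113 and Atp6v0a1 15.8 and 29.8.

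**Figure D4:**
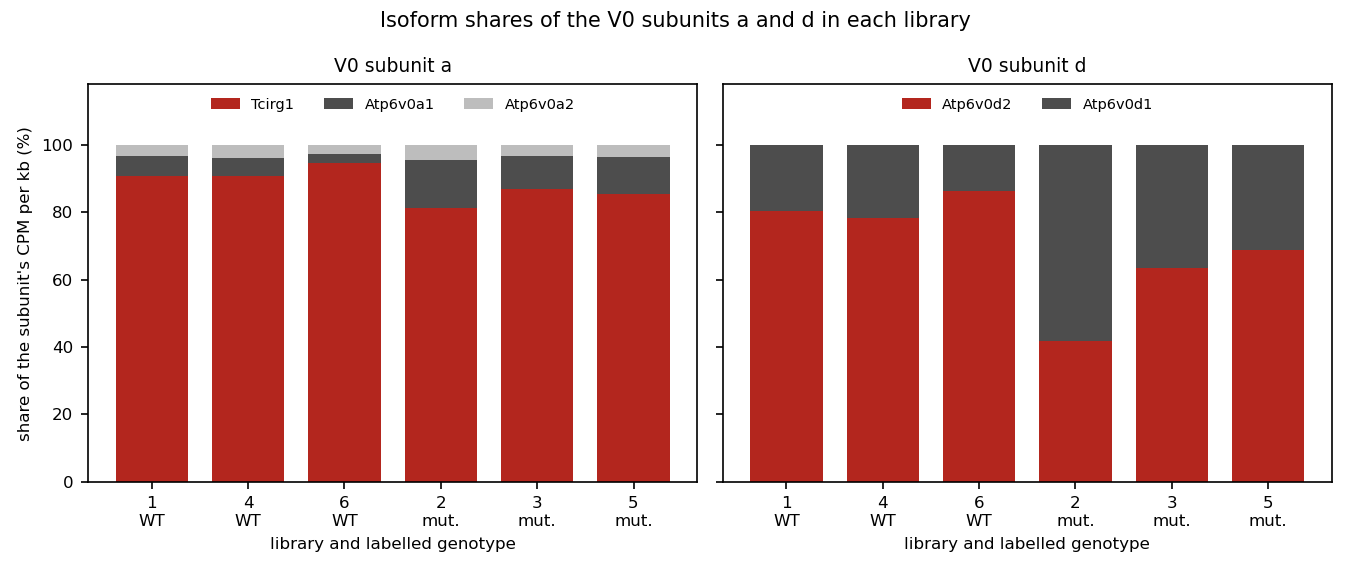
Share of each isoform in the transcripts of subunit a and of subunit d, in percent of CPM per kilobase, for each library. The d2 share lies between 78.3% and 86.5% in wild type and between 41.8% and 69.0% in the libraries labelled mutant, and Tcirg1 is the largest a isoform in each library.

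The rest of the V0 sector holds the proteolipid ring and small subunits. Atp6v0e (subunit e1) stood at 286, 257 and 470 CPM in wild type and 151, 178 and 219 CPM in the libraries labelled mutant, with no overlap. It fell by 0.88 on the log2 scale with an adjusted p of 0.0213 in edgeR with the two-number term, and 0.149 without. Atp6v0b (c'') and Atp6v0c (c), the proteolipids that carry protons, had log2 fold changes of -0.66 and -0.61 and did not pass with the term (edgeR, adjusted p = 0.0637 and 0.117). Atp6v0c overlapped between groups. Without library 6 the log2 fold changes of Atp6v0e, Atp6v0b and Atp6v0c were -0.55, -0.38 and -0.14, and without library 2 that of Atp6v0c was -0.37. Of the 9 V0 genes tested, 7 were below 0 (median -0.60), and 2 fell and 1 rose with the term (5.60% and 3.08% of all genes tested). Without the term 0 passed edgeR's test, and 4 were lower and 1 higher at an unadjusted p under 0.05 (12.4% and 7.19% of all). DESeq2 called 2 lower and 1 higher (6.44% and 5.58% of the genes to which it gave an adjusted p). Reads of Atp6v0c may be shared with its pseudogene copies, of which Atp6v0c-ps2 had 2 counts in library 5 and 0 in the others.

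The V1 sector was lower almost as a whole. Of its 9 tested genes, 8 were below 0, all 8 had groups that did not overlap (16.9% of all genes tested) and all 8 fell in the fit with the two-number term (5.60% of all). In edgeR with genotype only 0 passed, and 8 were lower at an unadjusted p under 0.05 (12.4% of all). DESeq2 called 7 lower (6.44% of the genes to which it gave an adjusted p). The median log2 fold change was -0.92. The catalytic subunit A (Atp6v1a) stood at 1529, 1215 and 1866 CPM in libraries 1, 4 and 6 and at 658, 799 and 975 CPM in libraries 2, 3 and 5, with means of 1537 ± 326 and 811 ± 159 (SD, n = 3). Its partner in the ATP-hydrolysing ring, subunit B2 (Atp6v1b2), the gene with the highest CPM of the 33, stood at 2054, 1683 and 2971 CPM and at 716, 1165 and 1353 CPM. In both, each library labelled mutant lay below each wild-type library. Their log2 fold changes were -0.92 (SE 0.225) and -1.05 (SE 0.313), with adjusted p of 0.0228 and 0.0348 in edgeR with the term and 0.109 and 0.146 without.

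The stalks that link the ring to the membrane were lower as well. Atp6v1e1 (E1, peripheral stalk) stood at 451, 381 and 695 CPM in wild type and 172, 213 and 259 CPM in the libraries labelled mutant. Its log2 fold change of -1.24 (SE 0.268) was the lowest of the sector (edgeR, adjusted p = 0.0142 with the term and 0.0946 without). Atp6v1d (D, the central shaft) stood at 437, 341 and 523 CPM and at 168, 222 and 227 CPM, a log2 fold change of -1.08 (SE 0.203). In both genes every library labelled mutant lay below every wild-type library. Atp6v1g1 (G1, peripheral stalk) stood at 441, 383 and 623 CPM and at 243, 290 and 289 CPM, a log2 fold change of -0.82. Atp6v1c1 (C1) and Atp6v1h (H), which regulate assembly and activity, had log2 fold changes of -0.78 and -0.94. Atp6v1c1 stood at 432, 357 and 616 CPM and at 203, 283 and 331 CPM, and Atp6v1h at 258, 211 and 391 CPM and at 114, 147 and 187 CPM. Each of these genes kept the groups apart, with library 6 on top and library 2 at the bottom. Atp6v1f (F, part of the shaft) stood at 187, 175 and 265 CPM and at 129, 132 and 149 CPM, a log2 fold change of -0.61. Without library 6 Atp6v1c1 was at -0.51 and Atp6v1f at -0.39. For Atp6v1d, Atp6v1g1, Atp6v1c1, Atp6v1h and Atp6v1f the edgeR adjusted p with the term was 0.0201, 0.0317, 0.0393, 0.0213 and 0.0323, and without the term it lay between 0.0791 and 0.178.

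Both accessory proteins, which help the pump assemble and reach its membranes, were below 0. Atp6ap2 (the prorenin receptor) stood at 524, 453 and 677 CPM in wild type and 283, 356 and 414 CPM in the libraries labelled mutant, and fell by 0.65 on the log2 scale with an adjusted p of 0.0391 in edgeR with the term (0.163 without). Atp6ap1 (Ac45) overlapped between groups, with a log2 fold change of -0.27 (edgeR, adjusted p = 0.559) that was -0.04 without library 6 and -0.17 without library 2.

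Set side by side, the isoform classes did not separate cleanly. The 2 osteoclast-enriched isoforms had a median log2 fold change of -1.07, and the 16 widely expressed subunits, with the accessory proteins, had a median of -0.72 with a range from -1.24 to 0.91. Some ubiquitous genes with no osteoclast-enriched counterpart in the list, such as Atp6v1e1 at -1.24 and Atp6v1d at -1.08, were lower than Tcirg1 at -0.60. Others were level with it, such as Atp6v0c and Atp6v1f at -0.61, and the accessory Atp6ap1 at -0.27 was nearer 0. The widely expressed genes above 0 were Atp6v0a1 and Atp6v0d1, the latter at 0.06 with overlapping groups. Both share their subunit with an enriched isoform, but so does Atp6v0a2, which was at -0.24. The class medians were given no test. With Atp6v1c1 counted as enriched, the medians became -0.78 and -0.66. Without library 6 the medians of the original classes were -0.78 and -0.49.

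Isoforms known from kidney, brain and other tissues were low, and most of them were near the floor. The 7 such genes in the table summed to 5.72 to 35.0 CPM per library, and 5 of them (Atp6v1b1, Atp6v1c2, Atp6v1g3, Atp6v0a4 and Atp6ap1l) were too low to test, as was the pseudogene Atp6v0c-ps2. Atp6v1g2 (G2, known from neurons) stood at 3.27, 6.74 and 6.01 CPM in wild type and 6.09, 6.42 and 6.55 CPM in the libraries labelled mutant, with overlapping groups. Atp6v0e2 (e2) varied most, with counts of 19, 318 and 3 in wild-type libraries 1, 4 and 6 against 281, 54 and 4 in libraries 2, 3 and 5, and a log2 fold change of -0.09 (SE 1.65). Atp6v1c2 (C2), with counts of 2, 42 and 0 and of 52, 7 and 1, followed that order except that library 2 stood above library 4.

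The order of Atp6v0e2 was also the order of growth hormone, Gh, which an osteoclast culture is not known to make. Wild-type libraries 1, 4 and 6 had 17918, 184265 and 0 Gh counts, while libraries 2, 3 and 5 had 158499, 51372 and 2. A list of 10 anterior pituitary genes, drawn up after these values were seen, summed to between 0.88 and 17031 CPM in wild type and between 0.82 and 13628 CPM in the libraries labelled mutant. Libraries with high and low Gh thus occur in both groups. Atp6v0a1, which neuroendocrine cells also express, had another order: its counts were 1057, 1333 and 1062 in wild-type libraries 1, 4 and 6, against 2774, 1814 and 2783 in libraries 2, 3 and 5. Its log2 difference was 0.75 within libraries 1 to 4 and 1.28 between the single libraries 5 and 6. The part of pituitary RNA in the differences between genotypes was not tested. Without Atp6v0e2 and Atp6v1c2 the median over the tested genes was -0.76 in place of -0.73.

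**Figure D5:**
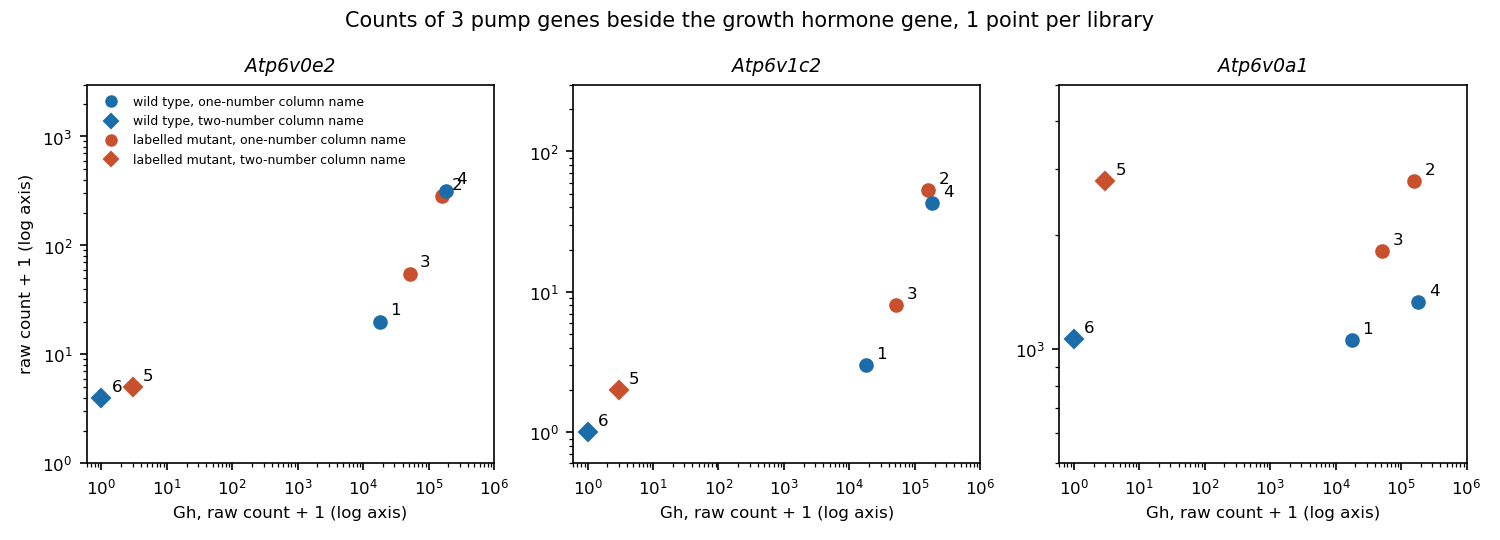
Counts plus 1, on log scales, of Atp6v0e2, Atp6v1c2 and Atp6v0a1 beside those of Gh in the 6 libraries. Atp6v0e2 and Atp6v1c2 are high where Gh is high, in libraries 4 and 2, and Atp6v0a1 is not ordered by Gh.

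The partners of the pump had the lowest median fold change of the 4 groups of genes. All 7 were below 0 (53.2% of all genes tested), with a median of -1.24. In 6 the groups did not overlap (16.9% of all), and 6 fell with the two-number term (5.60% of all). In edgeR with genotype only 0 passed, and 6 were lower at an unadjusted p under 0.05 (12.4% of all). DESeq2 called 5 lower (6.44% of the genes to which it gave an adjusted p). Slc9b2 (NHA2, a sodium-proton antiporter that is strongly induced in osteoclasts) stood at 532, 446 and 1076 CPM in libraries 1, 4 and 6 and at 71.8, 211 and 326 CPM in libraries 2, 3 and 5. It had the largest difference of the 33 genes among those tested, with means of 684 ± 342 and 203 ± 127 CPM (SD, n = 3) and a log2 fold change of -1.75 (SE 0.595). Library 6 alone was more than the other wild-type libraries together, and without it the log2 fold change was -1.24. The edgeR adjusted p was 0.0356 with the term and 0.178 without.

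Snx10, a sorting nexin needed for the ruffled border, stood at 858, 690 and 1355 CPM in wild type and 190.1, 347 and 441 CPM in the libraries labelled mutant. The groups were apart in every library, and its log2 fold change was -1.57 (SE 0.382). Car2 stood at 137, 110.0 and 275 CPM and at 23.5, 63.8 and 99.6 CPM. Its groups were apart by little, between 99.6 and 110.0 CPM, and its log2 fold change was -1.48 (SE 0.574), with -0.96 without library 6 and -2.01 without library 5. Slc4a2, the bicarbonate exporter, stood at 320.1, 308 and 528 CPM and at 97.7, 181 and 213 CPM, a log2 fold change of -1.24 (SE 0.346). The edgeR adjusted p of Snx10, Car2 and Slc4a2 was 0.0201, 0.0424 and 0.0263 with the term, and 0.108, 0.224 and 0.135 without. In the annotation, 13.7% of the exon bases of Slc4a2 overlap Fastk on the opposite strand, and the strand setting of the counting is not given in the sources used here. The next largest such overlap was 11.8%, of Atp6v0b with Gm12841.

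The chloride pathway was lower by less. Clcn7 stood at 487, 386 and 664 CPM in wild type and 272, 297 and 373 CPM in the libraries labelled mutant, and Ostm1, its beta subunit, at 169, 140.2 and 213 CPM and at 91.3, 98.1 and 125 CPM. Both kept the groups apart, with log2 fold changes of -0.71 (SE 0.233) and -0.73 (SE 0.197) and edgeR adjusted p of 0.0327 and 0.0204 with the term (0.169 and 0.128 without). Without library 6 Clcn7 was at -0.46. Plekhm1, an adaptor that joins late endosomes and lysosomes, was the exception among the partners. It stood at 325, 300.6 and 370 CPM and at 303, 281 and 297 CPM, with overlapping groups and a log2 fold change of -0.18 (edgeR, adjusted p = 0.4995, and 0.424 with the term) that was -0.08 without library 6.

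Other genes that serve acidification were read from lists. Of 11 tested genes for pump assembly and regulation, 6 were below 0 (median -0.11) and 2 fell with the two-number term (5.60% of all genes tested). Dmxl1, a rabconnectin of the assembly complex, stood at 259, 199.6 and 329 CPM in wild type and 132, 150.3 and 186 CPM in the libraries labelled mutant, with a log2 fold change of -0.75 (edgeR, adjusted p = 0.0270 with the term and 0.143 without). Oxr1, of the family that disassembles the pump, stood at 254, 199.6 and 339 CPM and at 130.3, 169 and 188 CPM, with a log2 fold change of -0.70 (edgeR, adjusted p = 0.0451 and 0.170), or -0.46 without library 6. In both genes the groups were apart by little. With genotype only edgeR called 0, and 4 were lower and 1 higher at an unadjusted p under 0.05 (12.4% and 7.19% of all genes tested). DESeq2 called 2 lower (6.44% of the genes to which it gave an adjusted p), Dmxl1 and Vma21, an assembly factor. Of 17 genes for other ion transport, 9 were below 0 (median -0.02) and 2 rose with the term (3.08% of all genes tested). Slc9a9, an endosomal sodium-proton exchanger, stood at 115, 73.8 and 55.5 CPM in wild type and 228, 206 and 212 CPM in the libraries labelled mutant, well apart, with a log2 fold change of 1.40 (SE 0.264). Hvcn1, the voltage-gated proton channel of phagocytes, stood at 74.2, 49.1 and 47.0 CPM and at 103, 94.7 and 111 CPM, also apart, with 0.86 (SE 0.194). The edgeR adjusted p of Slc9a9 and Hvcn1 was 0.0201 and 0.0404 with the term and 0.0786 and 0.0995 without. With genotype only edgeR called 0 of the 17, and 3 were lower and 2 higher at an unadjusted p under 0.05 (12.4% and 7.19% of all genes tested). DESeq2 called 1 lower and 2 higher (6.44% and 5.58% of the genes to which it gave an adjusted p). The 1 called lower was Slc4a3, an anion exchanger, which stood at 17.8, 30.7 and 32.7 CPM in wild type and 15.4, 11.5 and 8.41 CPM in the libraries labelled mutant. Its groups did not overlap, and its log2 fold change of -1.20 (SE 0.313), the lowest of that list, did not pass edgeR's test (adjusted p = 0.0617 with the term and 0.119 without). The lists thus held genes that were lower and genes that were higher, with medians near 0.

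Of 13 genes for the traffic of secretory lysosomes, 7 were below 0 (median -0.04) and 0 passed with edgeR with or without the term or with DESeq2, while 2 lower and 1 higher had an unadjusted p under 0.05, shares of the list near those of all genes tested (12.4% and 7.19%). The most abundant, Rab7 and Arl8b, small GTPases of late endosomes and lysosomes, had log2 fold changes of -0.07 and -0.42. None of the 4 MiT/TFE genes passed edgeR's test with or without the term. Mitf, a master regulator of osteoclast genes, was at -0.34 with overlapping groups and Tfec at -0.45 with groups apart (-0.21 and -0.28 without library 2), while Tfe3 was at 0.42 and Tfeb at 0.32 with every library labelled mutant above every wild-type library. With genotype only, 1 of the 4 was lower and 2 were higher at an unadjusted p under 0.05 (12.4% and 7.19% of all genes tested). DESeq2 called 1, Tfe3, higher (5.58% of the genes to which it gave an adjusted p).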

How the data were processed

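Per the labels' protocols, stranded mRNA libraries were sequenced as single-end reads of 75 bases. The submitters' processing notes name build mm10 and the tools SAMtools 0.1.19, TopHat2 2.0.13 and Bowtie2 2.2.3. How reads were counted, and with which strand setting, is not stated in these sources. The authors deposited raw counts per gene for 23264 rows, and 60 duplicate rows, with the same gene and the same counts, were removed. Columns with per-sample values that were not used numbered 0. Column names give the genotype but no replicate number or sex, so libraries were assigned to a genotype only.

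The 14040 genes that passed filterByExpr were TMM-scaled and fitted by genotype alone in R 4.3.3 (edgeR 4.0.16, quasi-likelihood test), and p-values were adjusted over all of them by the Benjamini-Hochberg method (threshold 0.05). A standard error is the absolute log2 fold change divided by the root of its F statistic. The common BCV, edgeR's measure of spread between libraries, was 40.9%, and it was 23.5% once the two-number names entered as a term. Isoform ratios are log2 of counts plus 0.5, compared over libraries in an exact permutation test (two-sided). Exon lengths and overlaps came from GENCODE M21, in which all 33 genes matched by identifier and coordinates, and promoters from RefSeq. Alternatives were DESeq2 1.42.0, other size factors, no filter on low counts, the two-number term, only the libraries without a second number, and leaving out each library.

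The genes, lists and tests were chosen with earlier results of these data known. Values in every library are given for the tested isoforms of subunits a and d, the partners, and genes past edgeR's threshold with or without the term, and others by range, count and examples. Vma21, Slc4a3 and the neutrophil markers S100a8, S100a9 and Ltf were named after their values were seen. From each pathway list, genes past the threshold were named, otherwise the 2 with the highest mean. On simulated counts (13589 genes) the fit with genotype only recovered 16% of 2-fold and 78% of 4-fold changes, and 4 of its 98 calls (4.08%) were false. The fit with the two-number term (13631 genes) found 62% and 93%, with 10 false among 165 calls (6.06%). Each fit was run on its own simulated counts, drawn from that fit's own terms and spread. The percentages describe each fit where its model holds, so they cannot show which fit suits these 6 libraries.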

Additional observations from a re-analysis of the deposited data

How the results depend on the processing

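Of 324 fold changes of the 27 tested genes under alternative settings, 320 kept their direction. The 4 reversals were in Atp6v1g2 (-0.0070 without library 1) and Atp6v0e2 (2.88, 0.14 and 0.47 without libraries 4, 3 and 5, in a leave-one-out range of -1.65 to 2.88), and among the other pathway genes Rab7 reversed (0.12, 0.06 and 0.01 without libraries 6, 2 and 3, in a range of -0.28 to 0.12). The cause was not tested. With genotype as the only term, edgeR called 0 of the 27 lower and 0 higher under other size factors, without a filter on low counts, in libraries 1 to 4 alone and with each library left out (0 to 0). The two-number term gave 17 lower and 1 higher, and DESeq2 15 lower and 1 higher. For the other pathway genes edgeR called 0 in each direction. The two-number term gave 2 lower and 2 higher (5.60% and 3.08% of all genes tested), and DESeq2 3 lower and 3 higher (6.44% and 5.58% of the genes to which it gave an adjusted p). With the two-number term kept, leaving out each library in turn gave 0 to 20 calls lower and 0 to 1 higher. Keeping the term in these fits was a choice made after the data were seen, and their shares over all genes are not given. Leaving out library 5 or 6 leaves a lone two-number library, which adds nothing to the genotype estimate. Leaving out each library gave differences of -1.72 to -1.15 for the Tcirg1 to Atp6v0a1 log2 ratio and -2.03 to -1.22 for Atp6v0d2 to Atp6v0d1. Class medians ranged from -1.30 to -0.78 for the osteoclast-enriched isoforms and from -0.86 to -0.49 for the ubiquitous ones. No paired analysis was possible because the column names carry no replicate number. At this depth 6 of the 33 genes had too few counts to be tested.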
